A study of Mus musculus with 13 samples.

Results

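Genes of sterol and fatty acid synthesis were followed across 7 cell subsets sorted from mouse bone marrow cultures. The 33 genes were chosen by name among the 24532 genes of the deposited tables, and each was found there as 1 row. They fall into 5 groups by role: 3 regulators (Srebf1, Srebf2 and Insig1), 8 genes of the mevalonate branch (Acat2, Hmgcs1, Mvk, Pmvk, Mvd, Idi1, Fdps and Ggps1), 12 genes of the steps between squalene and cholesterol (Fdft1, Sqle, Lss, Cyp51, Tm7sf2, Lbr, Msmo1, Nsdhl, Hsd17b7, Ebp, Sc5d and Dhcr7), the sterol carrier gene Stard4, and 9 genes of fatty acid synthesis and desaturation (Acly, Me1, Acaca, Fasn, Elovl6, Scd1, Scd2, Fads1 and Fads2). The mevalonate branch and the squalene to cholesterol group are called the sterol enzymes below (20 genes).

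Bone marrow of C57BL/6 mice aged 8 to 14 weeks was cultured for 8 to 10 days either with 10 μg/ml of FLT3L, which supports conventional dendritic cells (cDCs), or with 0.5 μg/ml of GM-CSF, which supports myeloid cells; these are called FL-BM and GM-BM culture. From FL-BM culture came mature FL-cDC2s (CD83+ CD115- CX3CR1-), immature FL-cDC2s (CD83- CD115- CX3CR1-), non-DCs (CD115+ CX3CR1+ cells of the cDC2 gate, which the labels call cDC2s), mature FL-cDC1s (CD83+) and immature FL-cDC1s (CD83-), and from GM-BM culture came GM-DCs and GM-Macs, the DC and macrophage gates. No subset received a stimulus other than its growth factor as far as the sources used here tell. Each subset gave 2 RNA-seq libraries, except mature FL-cDC1s with 1 library. The libraries were made to see what sets the expression profile of each subset apart. The 2 libraries stand for 2 RNA extractions. Whether these began from different cultures or mice is not given in the sources used here, so every p-value reflects the spread among these libraries alone, which may be technical.

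Cholesterol is built from acetyl-CoA through mevalonate, isoprenoid diphosphates, squalene and lanosterol, and the isoprenoids also serve for the prenylation of small GTPases. Fatty acids are built from citrate-derived acetyl-CoA by acetyl-CoA carboxylase and fatty acid synthase, then elongated and desaturated. Both pathways are driven by the SREBP transcription factors, which Insig proteins hold in the endoplasmic reticulum when sterols are plentiful, while the oxysterol receptor LXR raises Srebf1 and desaturase genes and is known in macrophages for cholesterol export.

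The libraries held 46042095 to 71330242 reads in genes. Levels are given in FPKM (fragments per kilobase of transcript, scaled to the library's total), which allows levels of different genes to be set side by side. The FPKM of all genes summed to 433630 to 512907 in 11 libraries, and to 637127 in the second immature FL-cDC1 library and 567828 in the second GM-Mac library, which stand apart. Fold changes and adjusted p-values come from edgeR on the read counts, scaled with TMM factors, at an adjusted p threshold of 0.05 over all genes tested. Marker sums matched the subset names for some lists and not for others. The 7 mature DC genes such as Ccr7 summed to 14702 FPKM in mature FL-cDC1s, 17295 to 20442 in mature FL-cDC2s and 11366 to 12676 in GM-DCs, against 155 to 791 in all other libraries, and 8 macrophage genes such as Csf1r summed to 47337 to 53148 FPKM in non-DCs and 49259 to 83886 in GM-Macs, against 97.0 to 4504 in the DC libraries. The non-DCs, labelled as cDC2s, had 28.2 to 31.3 FPKM over 4 cDC lineage genes, against 272 to 451 in both FL-cDC2 subsets. The cDC2 list (Sirpa, Itgam, Clec10a and Cd209a) ran the other way, at 60.9 and 40.2 FPKM in mature FL-cDC2s and 535 and 525 FPKM in immature FL-cDC2s, against 741 and 804 FPKM in non-DCs. It stood at 847 and 425 FPKM in GM-Macs. The cDC1 list (Xcr1, Clec9a, Tlr3 and Cadm1) summed to 83.2 FPKM in mature and 283 and 202 FPKM in immature FL-cDC1s with 4 of 4 genes at 1 FPKM, against 92.2 and 83.2 FPKM in immature FL-cDC2s with 1 of 4.

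All 33 genes reached a subset mean of at least 1 FPKM somewhere, 28 had at least 1 FPKM in every library, and 20 had at least 5 FPKM in every library. The ratio of a gene's highest to its lowest subset mean was 4.73 at the median of 32 genes, lowest for Stard4 (1.58) and highest for Scd1 (51.3); Me1 was left out because it had no read in immature FL-cDC1s. By FPKM, 10 genes had their highest subset mean in mature FL-cDC1s (Srebf2 and 9 sterol enzymes), 6 in GM-Macs, 5 in immature FL-cDC2s, 4 in immature FL-cDC1s, 3 each in non-DCs and GM-DCs, and 2 (Idi1 and Cyp51) in mature FL-cDC2s. With TMM-scaled read counts 25 of the 33 genes kept their highest subset, and 10 in place of 3 genes were then highest in non-DCs.

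**Figure D1:**
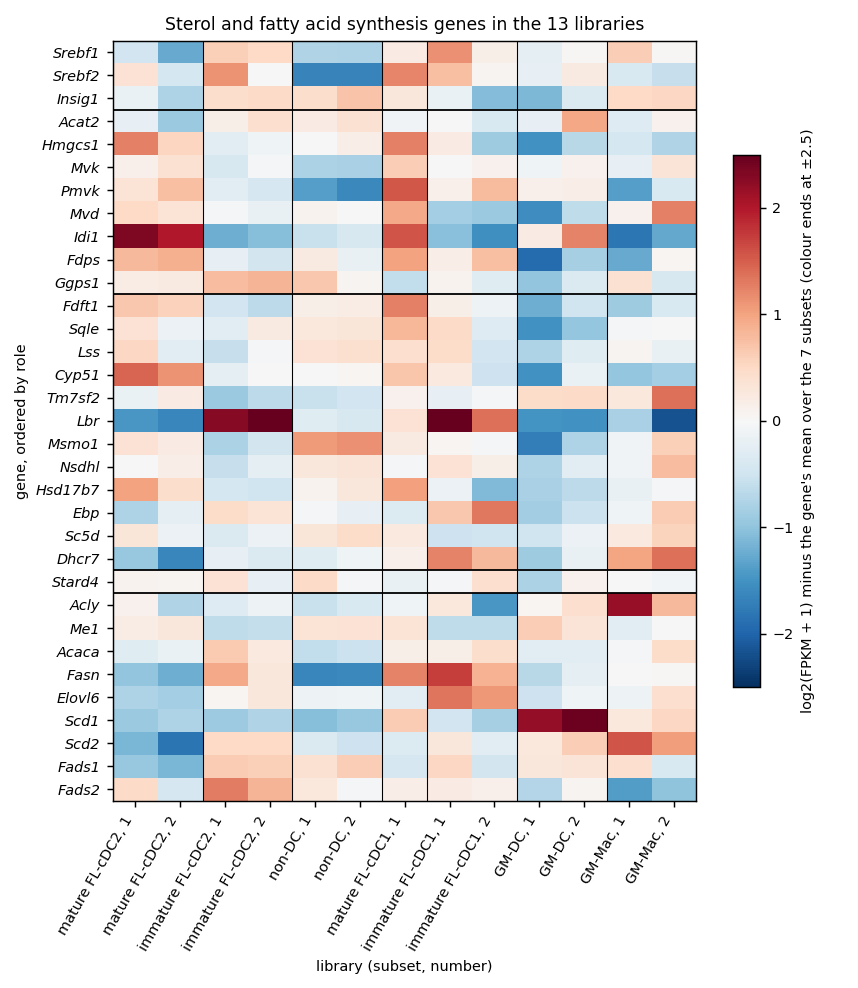
Level of each gene (rows, grouped by role with black lines) in each of the 13 libraries (columns), as log2(FPKM + 1) minus the gene's mean over the 7 subsets. Idi1 is red in both mature FL-cDC2 libraries, Lbr in the libraries of both immature FL subsets, and Scd1 in both GM-DC libraries.

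The mevalonate branch separated the CD83+ from the CD83- subsets of FL-BM culture in its summed level. The 8 genes summed to 466 and 401 FPKM in mature FL-cDC2s and to 463 FPKM in mature FL-cDC1s, against 174 and 175 FPKM in immature FL-cDC2s, 188 and 200.03 FPKM in immature FL-cDC1s and 193 and 182 FPKM in non-DCs. In these bulk libraries fewer cells of a type and less RNA per cell cannot be told apart. In GM-BM culture the sums overlapped, at 133 and 242 FPKM in GM-DCs and 126 and 214 FPKM in GM-Macs. Idi1 alone made up 42.2 and 38.9% of the branch in mature FL-cDC2s, against 9.15 and 10.2% in immature FL-cDC2s. Without Idi1 the 7 other genes still summed to 269 and 245 FPKM in mature FL-cDC2s, against 158 and 157 FPKM in immature FL-cDC2s. The squalene to cholesterol group showed a different order with Lbr, which made up 45.2 and 50.8% of its sum in immature FL-cDC2s, against 7.16 and 6.44% in non-DCs. Without Lbr, the 11 genes summed to 339 and 284 FPKM in mature FL-cDC2s, against 193 and 227 FPKM in immature FL-cDC2s and 334 and 351 FPKM in non-DCs. They were lowest in GM-DCs, at 110.4 and 175 FPKM, against 234 and 325 FPKM in GM-Macs. Acly made up 73.1 and 59.0% of the fatty acid group in GM-Macs, and the 8 genes without it summed to 42.0 and 27.7 FPKM in mature FL-cDC2s, lower than in every other library.

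**Figure D2:**
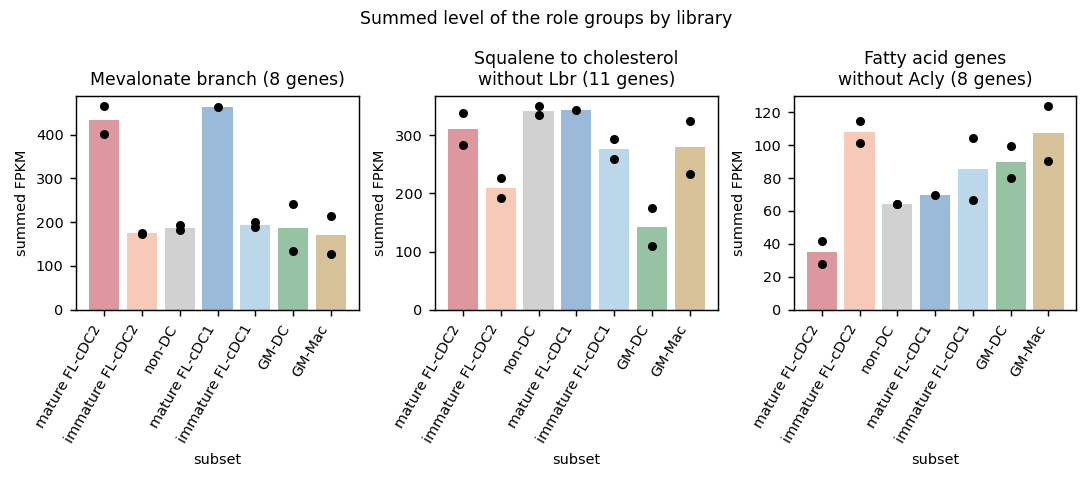
Summed FPKM of 3 role groups in each library (points) with the subset mean (bars), for the 8 mevalonate branch genes, the 11 squalene to cholesterol genes without Lbr and the 8 fatty acid genes without Acly. The mevalonate sum is at least 401 FPKM in the 3 libraries of mature FL-cDCs and at most 242 FPKM in the other 10 libraries.

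Maturation of FL-cDC2s was examined first, because the subsets share a culture and a deposited table. With TMM factors, most sterol enzymes rose in mature FL-cDC2s, while Lbr, Fasn and genes of fatty acid elongation and desaturation fell. Of the 33 genes, 14 were higher and 7 lower in mature than in immature FL-cDC2s, against 22.5% of all 13242 genes tested called higher and 24% called lower. The median log2 fold change of the 33 genes was 0.39 and that of all genes 0.00. Of the 20 sterol enzymes 13 were higher and 1, Lbr, was lower (median 0.95), and of the 9 fatty acid genes 1 was higher and 5 lower (median −1.01).

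Idi1, the isomerase that makes dimethylallyl diphosphate (Entrez gene 319554, chromosome 13 from 8885606 to 8892396, GRCm38), had 197 and 156 FPKM in mature FL-cDC2s, against 15.9 and 17.8 FPKM in immature FL-cDC2s. Both mature libraries lay above both immature ones with a gap wider than the spread within either subset (13.9-fold, log2 fold change 3.80 ± 0.23 SE, edgeR adjusted p = 1.42e-05). Hmgcs1, the HMG-CoA synthase gene (Entrez gene 208715, chromosome 13 from 119690351 to 119708260), had 76.7 and 45.9 FPKM in mature FL-cDC2s, against 25.8 and 29.1 FPKM in immature FL-cDC2s. Its mature libraries differed from each other more than its immature ones did, but the subsets did not overlap (log2 fold change 1.57 ± 0.27 SE, edgeR adjusted p = 0.00203). Pmvk, phosphomevalonate kinase, had 33.9 and 45.9 FPKM in mature FL-cDC2s, against 22.1 and 19.7 FPKM in immature FL-cDC2s, again without overlap (log2 fold change 1.34 ± 0.24 SE, edgeR adjusted p = 0.00246). Fdps, which joins isoprenoid units into farnesyl diphosphate, had 81.0 and 86.1 FPKM in mature FL-cDC2s, against 39.6 and 33.02 FPKM in immature FL-cDC2s. The libraries of each subset lay close together and the subsets were apart (log2 fold change 1.67 ± 0.20 SE, edgeR adjusted p = 0.000314).

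Fdft1, the squalene synthase that commits farnesyl diphosphate to sterols, had 26.3 and 24.5 FPKM in mature FL-cDC2s, against 11.3 and 9.88 FPKM in immature FL-cDC2s. The 4 values fell into 2 tight pairs (log2 fold change 1.68 ± 0.18 SE, edgeR adjusted p = 0.000161). Cyp51, the lanosterol demethylase, had 79.9 and 62.9 FPKM in mature FL-cDC2s, against 23.7 and 28.4 FPKM in immature FL-cDC2s, also without overlap (log2 fold change 1.87 ± 0.22 SE, edgeR adjusted p = 0.0003). Hsd17b7, the ketosteroid reductase of the pathway, had 7.26 and 4.60 FPKM in mature FL-cDC2s, against 2.05 and 1.93 FPKM in immature FL-cDC2s. It was a weakly expressed gene whose mature libraries both lay above the immature ones (log2 fold change 1.99 ± 0.28 SE, edgeR adjusted p = 0.00082). Tm7sf2, a sterol reductase that acts at the same step as Lbr, had 4.59 and 6.22 FPKM in mature FL-cDC2s, against 2.29 and 2.98 FPKM in immature FL-cDC2s. Tm7sf2 was thus higher in mature FL-cDC2s (log2 fold change 1.45 ± 0.33 SE, edgeR adjusted p = 0.00852), opposite to Lbr. Also higher, by log2 fold changes of 0.76 to 1.33, were Mvk and Mvd, the mevalonate kinase and mevalonate diphosphate decarboxylase genes, and Msmo1, Nsdhl and Sc5d, which remove methyl groups of lanosterol or place a late double bond. The sterol enzymes that did not pass were Acat2 (log2 fold change −0.44 ± 0.27 SE), Ggps1 (−0.30 ± 0.25), Sqle (0.55 ± 0.26), Lss (0.93 ± 0.34), Ebp (−0.50 ± 0.23) and Dhcr7 (−0.80 ± 0.33).

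Lbr, which encodes a sterol reductase that is also the lamin B receptor of the inner nuclear membrane (Entrez gene 98386, chromosome 1 from 181815315 to 181842401), had 11.04 and 9.66 FPKM in mature FL-cDC2s, against 159 and 234 FPKM in immature FL-cDC2s. It had the largest fall of the 33 genes, 14.3-fold (log2 fold change −3.84 ± 0.27 SE, edgeR adjusted p = 2.64e-05). The 8 cell cycle markers (Mki67, Top2a, Ccnb2, Cdk1, Mcm7, Rrm2, Stmn1 and Pcna) moved the same way, with sums of 104 and 111 FPKM in mature FL-cDC2s, against 1447 and 1551 FPKM in immature FL-cDC2s; 7 of the 8 had a mean of at least 1 FPKM in mature and all 8 in immature FL-cDC2s, and their part in the result was not tested. Macrophage markers were also lower, at 97.0 and 103 FPKM in mature FL-cDC2s, against 1186 and 2215 FPKM in immature FL-cDC2s, with 4 of 8 and 6 of 8 genes at a mean of 1 FPKM. Mertk, 1 of them, stayed under 1 FPKM in all 4 libraries.

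Among the fatty acid genes Fasn, the fatty acid synthase gene, had 2.58 and 2.04 FPKM in mature FL-cDC2s, against 12.6 and 7.58 FPKM in immature FL-cDC2s. The mature libraries both lay under the immature ones (log2 fold change −1.70 ± 0.26 SE, edgeR adjusted p = 0.00117). Scd2, a stearoyl-CoA desaturase, had 12.0 and 7.03 FPKM in mature FL-cDC2s, against 39.3 and 39.4 FPKM in immature FL-cDC2s, with nearly equal immature libraries far above the mature ones (log2 fold change −1.63 ± 0.26 SE, edgeR adjusted p = 0.00159). Fads1, a desaturase of polyunsaturated fatty acids, had 9.67 and 8.36 FPKM in mature FL-cDC2s, against 31.0 and 30.4 FPKM in immature FL-cDC2s, without overlap (log2 fold change −1.35 ± 0.19 SE, edgeR adjusted p = 0.000791). Elovl6, which elongates saturated fatty acids, and Acaca, the acetyl-CoA carboxylase, also fell, at levels of at most 1.86 FPKM in any of these libraries (log2 fold changes −2.00 and −1.01, edgeR adjusted p = 0.00176 and 0.0415). Me1, malic enzyme, rose and had 153 and 187 reads in mature FL-cDC2s, against 0 and 4 reads in immature FL-cDC2s (edgeR adjusted p = 0.000436). Acly, ATP citrate lyase, Scd1 and Fads2 did not pass (log2 fold changes 0.36 ± 0.29, 0.35 ± 0.50 and −0.62 ± 0.33 SE).

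Of the regulators, Srebf1 had 14.004 and 7.76 FPKM in mature FL-cDC2s, against 30.5 and 28.5 FPKM in immature FL-cDC2s, and fell (log2 fold change −1.02 ± 0.27 SE, edgeR adjusted p = 0.0155). Srebf2, whose product is the main activator of sterol genes, had 53.3 and 30.0 FPKM in mature FL-cDC2s, against 90.7 and 41.8 FPKM in immature FL-cDC2s; these values overlapped (log2 fold change −0.24 ± 0.37 SE, edgeR adjusted p = 0.633). Insig1, itself a known SREBP target in mammals, had 13.8 and 8.74 FPKM in mature FL-cDC2s, against 21.6 and 22.1 FPKM in immature FL-cDC2s, and its difference did not pass (log2 fold change −0.54 ± 0.25 SE, edgeR adjusted p = 0.11). Of these 21 calls 16 held under every alternative run. FPKM without overlap was not limited to the called genes, and its share over all genes was not counted. Insig1, Acat2, Ggps1, Ebp, Dhcr7 and Fads2, 6 genes that did not pass, also lay lower in both mature libraries than in both immature ones. By library size alone, which put the median of all genes at −0.40, 11 of the 33 genes were higher and 13 lower (sterol enzymes 10 higher and 5 lower), with a median of −0.04.

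**Figure D3:**
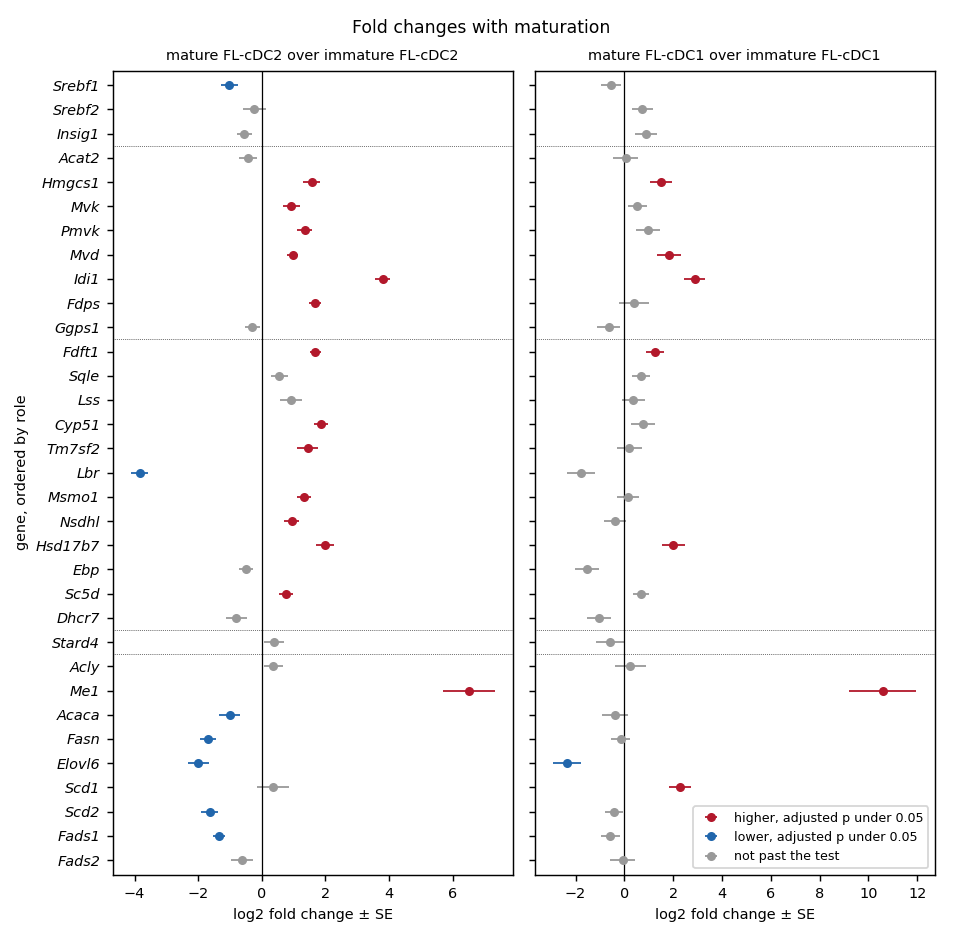
Log2 fold change with its SE for each of the 33 genes (rows, grouped by role with dotted lines) in mature over immature FL-cDC2s (left) and mature over immature FL-cDC1s (right); colors mark the edgeR test. The sterol enzymes from Hmgcs1 to Sc5d lie mostly right of 0 in mature FL-cDC2s, with Lbr at −3.84; the values of Me1 rest on subsets with 0 to 4 reads and are not bounds.

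Maturation of FL-cDC1s rested on 1 mature library, in a fit of all 13 libraries that assumes it varies like the other subsets, and the mature and immature libraries came from different deposited tables, so table and maturation cannot be told apart. Fewer genes passed. Of the 33 genes 7 were higher and 1 lower in mature FL-cDC1s, against 12.6% of all 14936 genes tested called higher and 8.28% called lower, and 5 of the 7 were sterol enzymes. The median log2 fold change was 0.24, against 0.00 for all genes. Idi1 had 117 FPKM in mature FL-cDC1s, against 18.2 and 12.5 FPKM in immature FL-cDC1s, with the mature library far above both immature ones (log2 fold change 2.88 ± 0.43 SE, edgeR adjusted p = 0.00133). Mvd had 59.7 FPKM in mature FL-cDC1s, against 16.5 and 15.5 FPKM in immature FL-cDC1s, also apart (log2 fold change 1.83 ± 0.49 SE, edgeR adjusted p = 0.0248). Hmgcs1 had 76.7 FPKM in mature FL-cDC1s, against 36.5 and 16.5 FPKM in immature FL-cDC1s; the immature libraries differed from each other by over 2-fold, and both lay under the mature one (log2 fold change 1.51 ± 0.45 SE, edgeR adjusted p = 0.0384).

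Fdft1 had 40.3 FPKM in mature FL-cDC1s, against 18.0 and 14.6 FPKM in immature FL-cDC1s (log2 fold change 1.24 ± 0.37 SE, edgeR adjusted p = 0.0387). Hsd17b7 had 7.41 FPKM in mature FL-cDC1s, against 2.75 and 0.920 FPKM in immature FL-cDC1s (log2 fold change 2.00 ± 0.48 SE, edgeR adjusted p = 0.0156). Both lay above the 2 immature libraries, as did 10 genes that did not pass, while 8 that did not pass lay below both. With a single mature library such separation is description only, and its share over all genes was not counted. Scd1 was higher in mature FL-cDC1s at a low level, 2.79 FPKM against 0.751 and 0.377 FPKM in immature FL-cDC1s (log2 fold change 2.27 ± 0.46 SE, edgeR adjusted p = 0.00722). Me1 had 175 reads in mature FL-cDC1s and none in either immature library, at least 72.0-fold higher in scaled counts over a floor of 3 reads per library; at this bound the median of the 33 genes stayed at 0.24. Elovl6 was the gene that fell, 0.872 FPKM in mature FL-cDC1s against 4.78 and 3.82 FPKM in immature FL-cDC1s (log2 fold change −2.36 ± 0.58 SE, edgeR adjusted p = 0.0174). Lbr had 41.1 FPKM in mature FL-cDC1s, against 195 and 84.5 FPKM in immature FL-cDC1s, and did not pass (log2 fold change −1.79 ± 0.58 SE, edgeR adjusted p = 0.052).

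The cell cycle markers were lower here as well. The 8 genes summed to 281 FPKM in mature FL-cDC1s, against 775 and 1107 FPKM in immature FL-cDC1s, with all 8 at 1 FPKM in both. The 8 macrophage genes summed to 1238 FPKM in mature FL-cDC1s, against 4052 and 4504 FPKM in immature FL-cDC1s. The B cell gene Cd79a had 14.8 FPKM in mature FL-cDC1s, against 0.330 and 0.168 FPKM in immature FL-cDC1s, and the B cell gene Ms4a1 had 8.93 FPKM, against 0.262 and 0.694 FPKM. The part of these markers in the results was not tested. Of the 8 calls 5 held under every alternative run. Without the second immature library 4 genes were higher and 2 lower, without the first 5 and 2, and by library size alone 6 and 2.

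Of the 21 genes called in FL-cDC2s and the 8 called in FL-cDC1s, 7 passed in the same direction in both (33.3% and 87.5% of the calls), against 36.1% and 71.1% of the calls over all genes: Hmgcs1, Mvd, Idi1, Fdft1, Hsd17b7 and Me1 were higher and Elovl6 lower. The difference between the 2 maturation changes was itself tested, in the fit of the 13 libraries. None of the 33 genes passed in edgeR, against 1.03% of all genes called with a larger and 5% with a smaller change in FL-cDC2s; at an unadjusted p under 0.05, 1 had a larger and 5 a smaller change, and DESeq2 called 3 (Lbr, Fasn and Scd1) and limma 1 with a smaller change. The largest differences in log2 fold change, FL-cDC2s minus FL-cDC1s, were −2.09 ± 0.67 SE for Lbr (edgeR adjusted p = 0.106), −1.95 ± 0.61 for Scd1 (adjusted p = 0.0976) and −1.58 ± 0.50 for Fasn (adjusted p = 0.0976), leaving aside Me1, which had 0 to 4 reads in the immature libraries. For Idi1 the difference was 0.89 ± 0.58 SE (adjusted p = 0.44).

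The stretch before the transcription start was read for the genes that passed in both, because SREBP is known to act with NF-Y, which binds CCAAT. Of the 33 genes 26 matched a RefSeq promoter window (GRCm38.p6, 250 bases before to 50 after the start); Fdps, Fads1, Scd2, Fdft1, Sqle, Scd1 and Stard4 did not. On either strand CCAAT occurred in the windows of 22 of the 26 genes (84.6%), against 42.3% of all 18245 genes with a window. The GC box GGGCGG, a binding sequence of Sp1, occurred in 21 (80.8%), against 49.1% (61.6% of the genes that had reads). The E-box CACGTG occurred in 4 (15.4%), against 9.13% (10.7% of the genes that had reads). The sterol regulatory element, searched as TCACNCCAC, occurred in 1 (Hmgcs1, 3.85%), against 1.46%. The motifs can overlap only by their end letters, the longest being the CAC shared by the E-box and the sterol regulatory element. A match describes letters only. Hsd17b7 also passed in both and had CCAAT in its window. It is not shown because that window's start is not the gene's outermost annotated start. The 160 bases before the start are shown for 3 mevalonate genes and Me1, which were higher, and for Elovl6, which was lower in both mature subsets, with CCAAT (or ATTGG, its other strand) and TCACNCCAC in capitals, 5′ to 3′ on the gene's strand:
Idi1 (chr13:8885446-8885605, strand +): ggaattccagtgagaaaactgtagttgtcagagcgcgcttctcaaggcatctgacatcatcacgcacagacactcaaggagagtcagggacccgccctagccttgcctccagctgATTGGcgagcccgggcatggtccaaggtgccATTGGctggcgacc
Hmgcs1 (chr13:119690191-119690350, strand +): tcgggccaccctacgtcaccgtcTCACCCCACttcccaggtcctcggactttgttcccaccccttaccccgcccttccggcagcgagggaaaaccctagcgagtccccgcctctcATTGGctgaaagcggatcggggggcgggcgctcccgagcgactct
Mvd (chr8:122443423-122443582, strand -): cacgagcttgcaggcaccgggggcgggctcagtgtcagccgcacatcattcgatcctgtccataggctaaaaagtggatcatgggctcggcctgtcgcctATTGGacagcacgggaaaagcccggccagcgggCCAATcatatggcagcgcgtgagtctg
Me1 (chr9:86695915-86696074, strand -): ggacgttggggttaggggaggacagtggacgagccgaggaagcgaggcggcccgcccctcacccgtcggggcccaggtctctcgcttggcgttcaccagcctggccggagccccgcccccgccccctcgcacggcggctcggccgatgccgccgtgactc
Elovl6 (chr3:129532226-129532385, strand +): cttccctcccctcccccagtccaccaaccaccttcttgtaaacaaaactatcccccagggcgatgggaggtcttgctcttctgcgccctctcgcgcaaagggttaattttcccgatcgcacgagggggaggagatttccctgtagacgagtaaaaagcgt
Idi1 and Mvd each had 2 CCAAT boxes in this stretch, and Hmgcs1 had 1 and the sterol regulatory element. Neither Me1 nor Elovl6 had a match to the motifs in capitals there. Me1 had GC boxes in this stretch and a CCAAT box in another window.

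Immature FL-cDC2s were next set against the non-DCs of the same gate, which carry macrophage markers. The study concludes from its culture experiments that these non-DCs are precursors of cDC2s. With TMM factors, most sterol enzymes were lower in immature FL-cDC2s, while Lbr, Fasn and both SREBP genes were higher. Of the 33 genes 5 were higher and 15 lower, against 23.6% and 24% of all genes tested, and 13 of the 15 were sterol enzymes. The median log2 fold change was −0.72, against 0.01 for all genes. This comparison shares its immature FL-cDC2 libraries with the maturation comparison. Msmo1, the methylsterol monooxygenase gene, had 35.2 and 44.8 FPKM in immature FL-cDC2s, against 129.5 and 138 FPKM in non-DCs. It was the most abundant of the 33 genes in non-DCs, and the subsets were far apart (log2 fold change −2.36 ± 0.22 SE, edgeR adjusted p = 0.000121). Fdft1 had 11.3 and 9.88 FPKM in immature FL-cDC2s, against 17.9 and 18.6 FPKM in non-DCs (log2 fold change −1.42 ± 0.17 SE, edgeR adjusted p = 0.000459). Idi1 had 15.9 and 17.8 FPKM in immature FL-cDC2s, against 25.7 and 28.8 FPKM in non-DCs (log2 fold change −1.32 ± 0.21 SE, edgeR adjusted p = 0.00167). Neither overlapped. Nsdhl, a sterol dehydrogenase that removes a carboxyl group, had 6.84 and 8.998 FPKM in immature FL-cDC2s, against 13.1 and 13.5 FPKM in non-DCs (log2 fold change −1.37 ± 0.24 SE, edgeR adjusted p = 0.00267).

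Sc5d, the desaturase of a late sterol intermediate, had 29.3 and 34.0 FPKM in immature FL-cDC2s, against 47.0 and 52.4 FPKM in non-DCs (log2 fold change −1.27 ± 0.22 SE, edgeR adjusted p = 0.00272). Lss, lanosterol synthase, had 4.003 and 6.37 FPKM in immature FL-cDC2s, against 8.60 and 8.85 FPKM in non-DCs (log2 fold change −1.37 ± 0.35 SE, edgeR adjusted p = 0.0137). The FPKM of Nsdhl, Sc5d and Lss did not overlap between the subsets. Nor did that of 9 genes that did not pass, all of which were higher in immature FL-cDC2s by FPKM. No such count was made over all genes. Fdps had 39.6 and 33.02 FPKM in immature FL-cDC2s, against 53.8 and 40.3 FPKM in non-DCs (log2 fold change −0.96 ± 0.19 SE, edgeR adjusted p = 0.00505). Sqle, squalene epoxidase, had 34.9 and 50.001 FPKM in immature FL-cDC2s, against 51.8 and 53.0 FPKM in non-DCs (log2 fold change −0.92 ± 0.27 SE, edgeR adjusted p = 0.0226). Fdps and Sqle did not overlap either, but the nearest libraries of the 2 subsets almost met. Mvd, Hmgcs1, Tm7sf2, Cyp51, Hsd17b7 and, among the regulators, Insig1 were also lower (log2 fold changes −1.52 to −0.75), and the FPKM of Cyp51 and Insig1 overlapped between the subsets. Me1 had 0 and 4 reads in immature FL-cDC2s, against 173 and 155 reads in non-DCs (edgeR adjusted p = 0.00038).

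Lbr had 159 and 234 FPKM in immature FL-cDC2s, against 25.8 and 24.1 FPKM in non-DCs, opposite to the 13 sterol enzymes that were lower (log2 fold change 2.36 ± 0.26 SE, edgeR adjusted p = 0.00025). Fasn had 12.6 and 7.58 FPKM in immature FL-cDC2s, against 1.28 and 1.32 FPKM in non-DCs, without overlap (log2 fold change 2.32 ± 0.27 SE, edgeR adjusted p = 0.000323). Srebf2 had 90.7 and 41.8 FPKM in immature FL-cDC2s, against 12.3 and 12.2 FPKM in non-DCs; its immature libraries differed by over 2-fold and both lay above the non-DC ones (log2 fold change 1.79 ± 0.38 SE, edgeR adjusted p = 0.00627). Srebf1 had 30.5 and 28.5 FPKM in immature FL-cDC2s, against 11.4 and 11.2 FPKM in non-DCs (log2 fold change 0.76 ± 0.27 SE, edgeR adjusted p = 0.0487), and Acaca, at 1.16 to 1.86 FPKM in immature FL-cDC2s against 0.194 to 0.255 FPKM in non-DCs, was higher too (log2 fold change 2.103 ± 0.36 SE). The cell cycle sum was 1447 and 1551 FPKM in immature FL-cDC2s, against 94.7 and 83.0 FPKM in non-DCs (8 of 8 and 7 of 8 genes at 1 FPKM), and its part was not tested. Of the 20 calls 11 held under every alternative run. By library size alone, which put the median of all genes at 0.64, 8 genes were higher and 7 lower, and without either the first or the second non-DC library 8 were lower.

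Mature FL-cDC2s were set against non-DCs as well. Of the 33 genes 7 were higher and 8 lower, against 26.4% and 27.1% of all genes tested, which is no larger a share than among all genes, with a median log2 fold change of −0.27 against 0.07 for all genes. Idi1 had 197 and 156 FPKM in mature FL-cDC2s, against 25.7 and 28.8 FPKM in non-DCs (log2 fold change 2.48 ± 0.22 SE, edgeR adjusted p = 5.83e-05). Pmvk had 33.9 and 45.9 FPKM in mature FL-cDC2s, against 9.71 and 8.10 FPKM in non-DCs (log2 fold change 1.95 ± 0.24 SE, edgeR adjusted p = 0.000363). Srebf2 had 53.3 and 30.0 FPKM in mature FL-cDC2s, against 12.3 and 12.2 FPKM in non-DCs (log2 fold change 1.55 ± 0.38 SE, edgeR adjusted p = 0.00979). All 3 were apart, Idi1 most widely. Cyp51 had 79.9 and 62.9 FPKM in mature FL-cDC2s, against 28.0 and 29.3 FPKM in non-DCs (log2 fold change 1.11 ± 0.21 SE, edgeR adjusted p = 0.00345). Mvk had 8.77 and 10.7 FPKM in mature FL-cDC2s, against 4.23 and 4.14 FPKM in non-DCs (log2 fold change 1.01 ± 0.28 SE, edgeR adjusted p = 0.0171). Fdps had 81.0 and 86.1 FPKM in mature FL-cDC2s, against 53.8 and 40.3 FPKM in non-DCs (log2 fold change 0.71 ± 0.19 SE, edgeR adjusted p = 0.0159). Acaca was the other gene that was higher, at under 1 FPKM.

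Fads1 was lower in mature FL-cDC2s and had 9.67 and 8.36 FPKM in mature FL-cDC2s, against 25.9 and 30.7 FPKM in non-DCs (log2 fold change −1.86 ± 0.19 SE, edgeR adjusted p = 0.00014). No library of either subset reached the other. Lbr had 11.04 and 9.66 FPKM in mature FL-cDC2s, against 25.8 and 24.1 FPKM in non-DCs (log2 fold change −1.48 ± 0.25 SE, edgeR adjusted p = 0.00177). Scd2 had 12.0 and 7.03 FPKM in mature FL-cDC2s, against 21.2 and 19.0 FPKM in non-DCs (log2 fold change −1.29 ± 0.26 SE, edgeR adjusted p = 0.00435). Msmo1 had 79.6 and 71.7 FPKM in mature FL-cDC2s, against 129.5 and 138 FPKM in non-DCs (log2 fold change −1.03 ± 0.21 SE, edgeR adjusted p = 0.00457). Lbr was thus lower in mature FL-cDC2s and higher in immature FL-cDC2s than in the non-DCs, with no overlap in either comparison. Insig1 had 13.8 and 8.74 FPKM in mature FL-cDC2s, against 21.4 and 26.2 FPKM in non-DCs (log2 fold change −1.29 ± 0.25 SE, edgeR adjusted p = 0.00354). Acat2, the acetyl-CoA acetyltransferase of the first step, had 18.5 and 10.9 FPKM in mature FL-cDC2s, against 25.0 and 28.2 FPKM in non-DCs (log2 fold change −1.07 ± 0.28 SE, edgeR adjusted p = 0.0129). Dhcr7, the reductase of the last step in one branch, had 3.47 and 1.78 FPKM in mature FL-cDC2s, against 5.97 and 7.03 FPKM in non-DCs (log2 fold change −1.52 ± 0.34 SE, edgeR adjusted p = 0.00648). Elovl6 fell as well, at 0.257 to 1.13 FPKM in these libraries. Of the 15 calls 9 held under every alternative run; without the second non-DC library 3 genes were higher, and by library size alone, with the median of all genes at 0.28, 10 were higher and 8 lower.

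In GM-BM culture 7 of the 33 genes differed between GM-DCs and GM-Macs. The first libraries of both subsets share a deposited table, and the second ones have a table each. Idi1 and Scd1 were higher in GM-DCs and 5 genes were lower, against 8.71% of all 13083 genes tested called higher and 10.6% called lower, so the members' total lay near that of all genes. The median log2 fold change was −0.79, against −0.05 for all genes. Scd1, the stearoyl-CoA desaturase known as an LXR and SREBP target (Entrez gene 20249, chromosome 19 from 44394450 to 44407709), had 10.2 and 12.3 FPKM in GM-DCs, against 1.95 and 2.48 FPKM in GM-Macs. In the FL-BM subsets it did not exceed 2.79 FPKM, the value of the mature FL-cDC1 library, and its subsets in GM-BM culture did not overlap (log2 fold change 2.09 ± 0.35 SE, edgeR adjusted p = 0.0102). Idi1 had 44.2 and 91.7 FPKM in GM-DCs, against 10.2 and 15.2 FPKM in GM-Macs; the GM-DC libraries differed by over 2-fold and both lay above the GM-Mac ones (log2 fold change 2.17 ± 0.48 SE, edgeR adjusted p = 0.024). Mvd had 9.74 and 19.2 FPKM in GM-DCs, against 32.8 and 74.2 FPKM in GM-Macs (log2 fold change −2.16 ± 0.55 SE, edgeR adjusted p = 0.0377). Dhcr7 had 3.695 and 6.62 FPKM in GM-DCs, against 16.2 and 21.4 FPKM in GM-Macs (log2 fold change −2.11 ± 0.42 SE, edgeR adjusted p = 0.0173). Msmo1 had 17.9 and 35.8 FPKM in GM-DCs, against 58.2 and 93.5 FPKM in GM-Macs (log2 fold change −1.75 ± 0.47 SE, edgeR adjusted p = 0.0447). The subsets did not overlap for any of these 3 genes, nor for 10 genes lower and 4 higher that did not pass. How often this held among all genes was not counted. Sqle had 14.4 and 21.6 FPKM in GM-DCs, against 41.6 and 42.8 FPKM in GM-Macs (log2 fold change −1.47 ± 0.34 SE, edgeR adjusted p = 0.0286). Insig1 had 6.58 and 11.9 FPKM in GM-DCs, against 22.3 and 22.7 FPKM in GM-Macs (log2 fold change −1.52 ± 0.38 SE, edgeR adjusted p = 0.0367). The GM-Mac libraries were nearly equal for both genes.

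Acly, which makes cytosolic acetyl-CoA from citrate (Entrez gene 104112, chromosome 11 from 100476352 to 100528000), had 75.9 and 99.2 FPKM in GM-DCs, against 337 and 130.3 FPKM in GM-Macs. The GM-Mac libraries were the highest of all 13 but differed 2.59-fold from each other, and the difference did not pass (log2 fold change −1.63 ± 0.49 SE, edgeR adjusted p = 0.0624). Only the Scd1 call held under every alternative run of this comparison. The number of genes lower in GM-DCs was 0 without the first GM-DC library and 11 without the first GM-Mac library, the number higher was 1 without the second GM-DC or the first GM-Mac library, and by library size alone, with the median of all genes at 0.19, 2 genes were higher and 1 lower. For 19 of the 20 sterol enzymes the first GM-DC library had the lower FPKM of the pair.

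**Figure D4:**
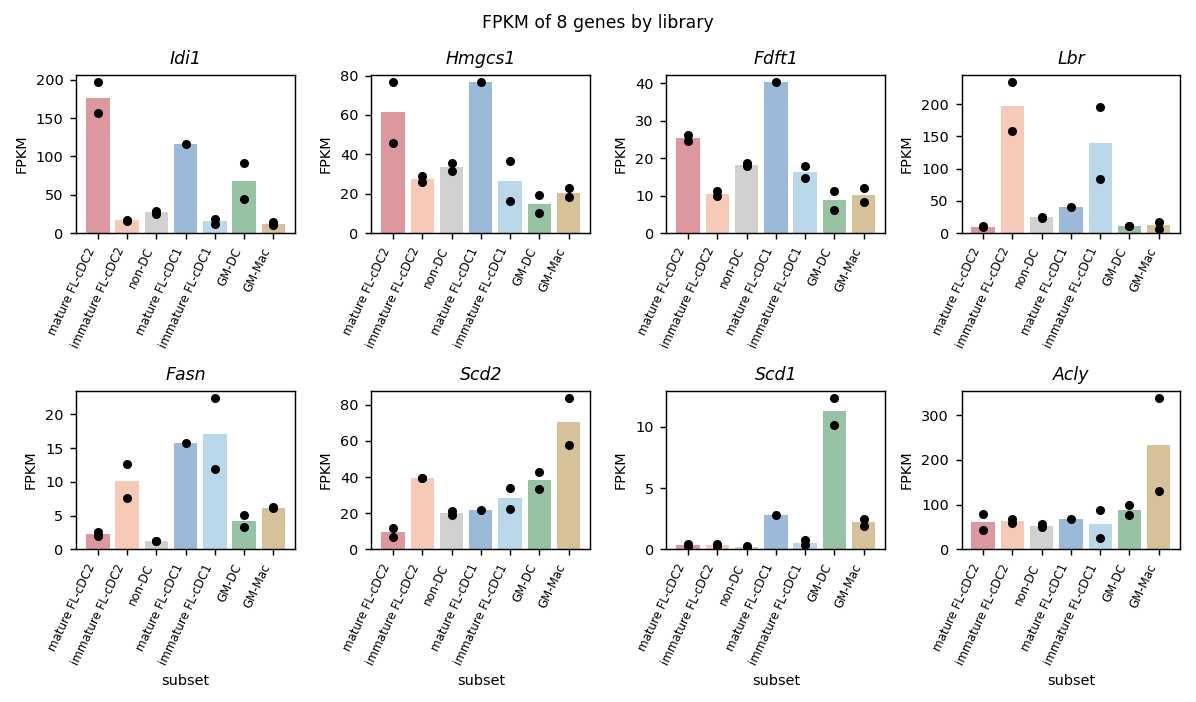
FPKM of 8 genes in each library (points) with the subset mean (bars); each panel has its own axis from 0. Idi1 is highest in the mature FL subsets and lies at 44.2 and 91.7 FPKM in GM-DCs, against 10.2 and 15.2 FPKM in GM-Macs, Lbr is highest in the immature FL subsets, and Scd1 in GM-DCs (10.2 and 12.3 FPKM).

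The mature DCs of both cultures were compared next, mature FL-cDC2s against GM-DCs. Culture, deposited table and subset cannot be told apart here. The genes higher in mature FL-cDC2s belonged to the sterol enzymes and those lower to the fatty acid genes, among them 3 desaturases. All 10 genes that were higher were sterol enzymes, and 4 fatty acid genes were lower, against 7.75% of all 14936 genes called higher and 12.9% called lower. The share of the chosen genes called lower was thus no larger than that among all genes. The median log2 fold change was 0.43 (1.09 for the sterol enzymes), against −0.01 for all genes. Cyp51 had 79.9 and 62.9 FPKM in mature FL-cDC2s, against 9.32 and 25.0 FPKM in GM-DCs (log2 fold change 2.1997 ± 0.42 SE, edgeR adjusted p = 0.00475). Hmgcs1 had 76.7 and 45.9 FPKM in mature FL-cDC2s, against 10.4 and 19.2 FPKM in GM-DCs (log2 fold change 2.198 ± 0.40 SE, edgeR adjusted p = 0.00339). Fdps had 81.0 and 86.1 FPKM in mature FL-cDC2s, against 11.3 and 25.4 FPKM in GM-DCs (log2 fold change 2.38 ± 0.54 SE, edgeR adjusted p = 0.0106). Each of these genes was higher in both mature FL-cDC2 libraries than in either GM-DC library. Fdft1 had 26.3 and 24.5 FPKM in mature FL-cDC2s, against 6.33 and 11.2 FPKM in GM-DCs (log2 fold change 1.68 ± 0.32 SE, edgeR adjusted p = 0.00462). Hsd17b7 had 7.26 and 4.60 FPKM in mature FL-cDC2s, against 1.35 and 1.64 FPKM in GM-DCs (log2 fold change 2.14 ± 0.42 SE, edgeR adjusted p = 0.00551). Mvd had 43.0 and 38.4 FPKM in mature FL-cDC2s, against 9.74 and 19.2 FPKM in GM-DCs (log2 fold change 1.64 ± 0.43 SE, edgeR adjusted p = 0.0211). These 3 genes did not overlap between the subsets either, nor did 4 genes higher and 5 lower that did not pass. Genes without overlap were not counted among all genes tested. Msmo1 had 79.6 and 71.7 FPKM in mature FL-cDC2s, against 17.9 and 35.8 FPKM in GM-DCs (log2 fold change 1.64 ± 0.37 SE, edgeR adjusted p = 0.0114). Sqle had 55.2 and 38.5 FPKM in mature FL-cDC2s, against 14.4 and 21.6 FPKM in GM-DCs (log2 fold change 1.53 ± 0.33 SE, edgeR adjusted p = 0.00829). Idi1 and Ggps1, the geranylgeranyl diphosphate synthase gene, completed the 10 (log2 fold changes 1.52 and 1.23).

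Scd1 had 0.290 and 0.437 FPKM in mature FL-cDC2s, against 10.2 and 12.3 FPKM in GM-DCs, the largest difference of the comparison among the 33 genes (log2 fold change −4.79 ± 0.45 SE, edgeR adjusted p = 0.000113). Scd2 had 12.0 and 7.03 FPKM in mature FL-cDC2s, against 33.4 and 42.8 FPKM in GM-DCs (log2 fold change −1.85 ± 0.30 SE, edgeR adjusted p = 0.00193). Fads1 had 9.67 and 8.36 FPKM in mature FL-cDC2s, against 24.3 and 24.9 FPKM in GM-DCs (log2 fold change −1.29 ± 0.31 SE, edgeR adjusted p = 0.0152). Elovl6 was lower at 0.257 to 1.11 FPKM. The macrophage sum was 97.0 and 103 FPKM in mature FL-cDC2s, against 1437 and 2220.5 FPKM in GM-DCs (4 of 8 and 8 of 8 genes at a mean of 1 FPKM), and its part was not tested. Of the 14 calls 5 held under every alternative run: Hmgcs1, Fdft1, Cyp51, Scd1 and Scd2. Without the first mature FL-cDC2 library 5 genes were higher and 2 lower, without the first GM-DC library 3 were higher, and without the second mature FL-cDC2 or the second GM-DC library 2 were lower.

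Non-DCs and GM-Macs, the subsets with the highest macrophage marker sum in each culture, differed in 9 of the 33 genes, of which 6 were fatty acid genes. Culture, deposited table and subset cannot be told apart here. Of the 33 genes 2 were higher and 7 lower in non-DCs, against 9.29% and 11.2% of all genes tested, and 5 of the 7 were fatty acid genes. The median log2 fold change was 0.24, against −0.09 for all genes, and that of the fatty acid genes −1.65. Fasn had 1.28 and 1.32 FPKM in non-DCs, against 6.14 and 6.26 FPKM in GM-Macs, with tight pairs in both subsets (log2 fold change −2.105 ± 0.33 SE, edgeR adjusted p = 0.00267). Scd2 had 21.2 and 19.0 FPKM in non-DCs, against 83.5 and 57.6 FPKM in GM-Macs (log2 fold change −1.65 ± 0.30 SE, edgeR adjusted p = 0.00529). Acly had 49.6 and 56.2 FPKM in non-DCs, against 337 and 130.3 FPKM in GM-Macs (log2 fold change −1.96 ± 0.53 SE, edgeR adjusted p = 0.0279). None of these 3 genes overlapped, nor did 4 genes lower and 10 higher that did not pass. A count over all genes was not made. Scd1 and Acaca were lower as well, at 0.171 to 0.268 FPKM and 0.194 to 0.255 FPKM in non-DCs, against 1.95 to 2.48 FPKM and 0.790 to 1.52 FPKM in GM-Macs. Tm7sf2 had 3.27 and 3.48 FPKM in non-DCs, against 6.55 and 15.2 FPKM in GM-Macs (log2 fold change −1.56 ± 0.44 SE, edgeR adjusted p = 0.0309). Its GM-Mac libraries differed by over 2-fold. Dhcr7 had 5.97 and 7.03 FPKM in non-DCs, against 16.2 and 21.4 FPKM in GM-Macs (log2 fold change −1.39 ± 0.39 SE, edgeR adjusted p = 0.0303). Idi1 and Fads2 were higher in non-DCs. Idi1 had 25.7 and 28.8 FPKM in non-DCs, against 10.2 and 15.2 FPKM in GM-Macs (log2 fold change 1.24 ± 0.37 SE, edgeR adjusted p = 0.0384). Fads2, a desaturase of polyunsaturated fatty acids, had 13.6 and 10.8 FPKM in non-DCs, against 3.58 and 5.06 FPKM in GM-Macs (log2 fold change 1.64 ± 0.42 SE, edgeR adjusted p = 0.0225). The calls of Fasn and Scd1 held under every alternative run. Without the first or the second non-DC library none was higher and 3 or 2 were lower, without the first GM-Mac library 1 was higher, and by library size alone, with the median of all genes at −0.25, 1 was higher and 8 lower.

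Immature FL-cDC2s against immature FL-cDC1s gave 5 lower genes and none higher, against 8.9% of all 14936 genes called lower and 11.4% called higher (edgeR; 0 of the 33 genes were higher at an unadjusted p under 0.05, with 0 called higher by DESeq2 and 1 by limma). The subsets come from different deposited tables, and table and subset cannot be told apart. Dhcr7 had 6.53 and 5.69 FPKM in immature FL-cDC2s, against 19.4 and 14.1 FPKM in immature FL-cDC1s (log2 fold change −1.89 ± 0.39 SE, edgeR adjusted p = 0.00846). Pmvk had 22.1 and 19.7 FPKM in immature FL-cDC2s, against 29.4 and 47.2 FPKM in immature FL-cDC1s (log2 fold change −1.36 ± 0.41 SE, edgeR adjusted p = 0.0422). Fdft1 had 11.3 and 9.88 FPKM in immature FL-cDC2s, against 18.0 and 14.6 FPKM in immature FL-cDC1s (log2 fold change −1.07 ± 0.32 SE, edgeR adjusted p = 0.0385). None of the 3 overlapped between subsets, nor did 6 genes lower and 8 higher that did not pass. All genes were not counted in this way. Fasn had 12.6 and 7.58 FPKM in immature FL-cDC2s, against 22.4 and 11.9 FPKM in immature FL-cDC1s (log2 fold change −1.19 ± 0.32 SE, edgeR adjusted p = 0.0275). Its values overlapped in FPKM. Elovl6 was lower at 1.35 to 1.79 FPKM in immature FL-cDC2s, against 3.82 to 4.78 FPKM in immature FL-cDC1s. None of the 5 calls held under every alternative run: without the first or the second immature FL-cDC2 library 2 or 0 genes were lower, without the second immature FL-cDC1 library 3, and by library size alone, with the median of all genes at 0.46, 2.

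**Figure D5:**
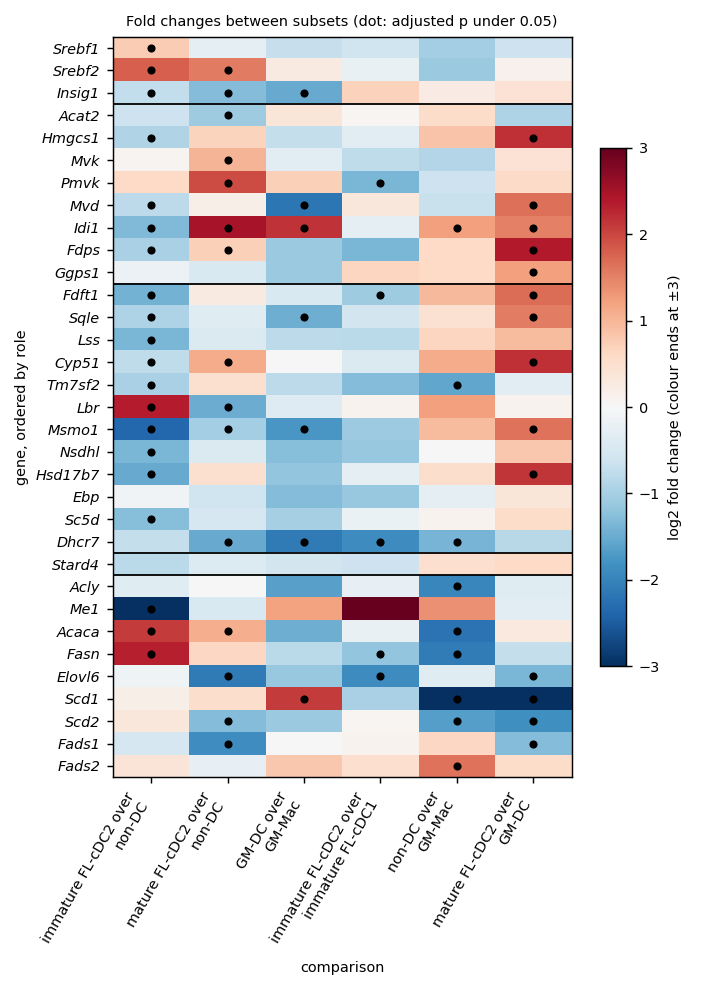
Log2 fold change of each of the 33 genes (rows, grouped by role with black lines) in 6 comparisons between subsets (columns), with a dot where the edgeR adjusted p was under 0.05. In mature FL-cDC2s over GM-DCs all 10 dots on red are sterol enzymes, while in immature FL-cDC2s over non-DCs 13 sterol enzymes have a dot on blue and Lbr a dot on red.

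Stard4, whose product carries sterols between membranes, passed in none of the 9 edgeR comparisons, and its level lay between 1.504 and 4.98 FPKM in all 13 libraries. Sc5d, at 1.92-fold between its highest and lowest subset mean, was the other gene that ranged less than 2-fold. Srebf2 had a wider range than Srebf1, with subset means 7.94-fold and 3.07-fold apart; Srebf2 was lowest in non-DCs and Srebf1 in mature FL-cDC2s.

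A further 18 genes of the pathways, which are not among the 33, were read alongside them. They comprise 6 genes of SREBP processing and LXR (Scap, Insig2, Mbtps1, Mbtps2, Nr1h2 and Nr1h3) and 12 of acetyl-CoA supply and acyl chain elongation (Acss2, Slc25a1, Acacb, Aacs, Elovl1, Elovl5, Elovl7, Hsd17b12, Tecr, Hacd2, Hacd3 and Mid1ip1). In mature over immature FL-cDC2s 5 of 17 tested were higher and 5 lower, near the 22.5% and 24% of all genes. The 5 that fell were Hacd3, Hsd17b12, Hacd2, Tecr and Elovl5, all of acyl chain elongation (log2 fold changes −1.499, −1.31, −0.97, −0.62 and −0.58). Of the 11 tested genes of acetyl-CoA supply and acyl chain elongation, 3 were higher. Elovl1 and Elovl7 were not among those that fell, and Elovl7 had 0.249 and 0.267 FPKM in mature FL-cDC2s, against 0.127 and 0.100 FPKM in immature FL-cDC2s. In mature FL-cDC2s over non-DCs 3 of 17 were higher and 8 lower (all genes 26.4% and 27.1%), and in immature FL-cDC2s over non-DCs 2 and 7 (23.6% and 24%). Of 18 tested, 1 was higher and 7 lower in immature FL-cDC2s over immature FL-cDC1s (11.4% and 8.9%), 0 and 4 in GM-DCs over GM-Macs (8.71% and 10.6%; 1 and 8 at an unadjusted p under 0.05 in edgeR), 1 and 2 in mature over immature FL-cDC1s (12.6% and 8.28%), 3 and 2 in non-DCs over GM-Macs (9.29% and 11.2%) and 2 and 2 in mature FL-cDC2s over GM-DCs (7.75% and 12.9%).

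Nr1h3, the gene of LXRα (Entrez gene 22259, chromosome 2 from 91184061 to 91202829), had 40.9 and 33.7 FPKM in non-DCs, and no more than 2.15 FPKM in any other library. Immature FL-cDC2s had 1.52 and 2.15 FPKM, against 40.9 and 33.7 FPKM in non-DCs, a 30.3-fold lower level (log2 fold change −4.92 ± 0.32 SE, edgeR adjusted p = 2.9e-05). Non-DCs also lay above GM-Macs, which had 1.71 and 2.12 FPKM (log2 fold change 4.44 ± 0.37 SE, edgeR adjusted p = 0.00014). Srebf1 and Scd1, both known as LXR targets in mice, had 11.4 and 11.2 FPKM and 0.171 and 0.268 FPKM in non-DCs. Any part of LXRα in the levels of its targets was not tested. Mid1ip1, known to promote the activity of acetyl-CoA carboxylase, had 6.52 and 6.89 FPKM in GM-DCs, against 38.3 and 41.7 FPKM in GM-Macs (log2 fold change −2.82 ± 0.31 SE, edgeR adjusted p = 0.0039). It also had 10.4 and 14.5 FPKM in immature FL-cDC2s, against 38.7 and 38.7 FPKM in non-DCs (log2 fold change −2.25 ± 0.24 SE, edgeR adjusted p = 0.000238). Insig2, the second Insig gene, had 7.11 and 4.83 FPKM in mature FL-cDC2s, against 21.3 and 28.2 FPKM in non-DCs, lower without overlap (log2 fold change −2.25 ± 0.25 SE, edgeR adjusted p = 0.000225). Nr1h2, the gene of LXRβ, was expressed in every library between 49.0 and 152 FPKM.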

How the data were processed

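RNA of 13 libraries from 7 sorted subsets was sequenced after PCR amplification of cDNA without molecular identifiers, so the floor of 3 reads covers counting error only. The authors deposited 6 tables that give, per library, a read count and an FPKM for each gene: the counts are whole and not normalized, and the deposited FPKM are scaled to transcript length and library total. All 26 columns of values were used. HISAT 2.1.0 with StringTie 1.3.4d stands in the study's methods. STAR 2.6.0c, HTSeq, Trimmomatic, bcl2fastq 2.20.0, the same StringTie version and the build mm10 stand in the submitters' processing notes; which of them made the tables, and whether counting used strand, is not given in the sources used here. Levels of the paralogs Scd1 and Scd2, and of Idi1 with its neighboring paralog Idi2, are uncertain to the extent that reads were split between copies.

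edgeR 4.0.16 under R 4.3.3 was applied to the read counts after filterByExpr, with TMM factors, its quasi-likelihood test and Benjamini-Hochberg adjustment over all genes tested. The 3 cDC2-gated subsets were fitted in 6 libraries (13242 genes), GM-DCs and GM-Macs in 4 (13083) and all other comparisons in 13 (14936), without covariates; the biological coefficients of variation were 25.8%, 38.3% and 35.9%. Each SE was taken as |log2 fold change| / √F. FPKM without overlap between subsets is description only, and its share over all genes was not counted. Counts of genes without overlap therefore cannot set the chosen genes apart from other genes. The script was checked on simulated counts. Alternatives were library size alone, DESeq2 1.42.0, no filter, limma 3.58.1 on log2(FPKM + 1), other libraries in the fit, a replicate block and leaving out each library. In each subset with 2 libraries, the pair differed by more than sampling noise. Genes that passed and averaged 5 FPKM or more in the higher subset are described singly for each comparison, at most the 8 largest per direction, and the rest by counts and ranges, with values for some of the less abundant. The 33 genes, the 18 further genes and the marker lists were chosen with earlier results of these data known, and some marker genes are not reported here. Coordinates and promoters come from RefSeq on GRCm38.p6 (mm10), matched by Entrez identifier. Tables were handled in Python 3.11.15 with pandas 2.3.3.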

Additional observations from a re-analysis of the deposited data

Results flagged for a closer look

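The change of Nr1h3, the gene of LXRα, with maturation differed between FL-cDC2s and FL-cDC1s by a test of the difference itself. It stood at 1.65 and 1.12 FPKM in mature FL-cDC2s, against 1.52 and 2.15 FPKM in immature FL-cDC2s, and at 0.330 FPKM in the mature FL-cDC1 library, against 0.0681 and 0.0305 FPKM in immature FL-cDC1s. The difference in log2 fold change, FL-cDC2s minus FL-cDC1s, was −2.58 ± 0.58 SE (edgeR adjusted p = 0.0277). It passed in 6 of 11 alternatives, with adjusted p-values of 0.00331 to 0.265, and rested on levels of at most 2.15 FPKM and on 1 mature FL-cDC1 library. It was lost with limma, with only the subsets compared in the fit, and without the second mature FL-cDC2, the second immature FL-cDC2 or the second immature FL-cDC1 library.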

How the results depend on the processing

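Of 99 calls of a gene in a comparison, 49 held under every alternative run and 0 changed direction; of the 198 differences that did not pass, 60 changed sign under some alternative. The counts that moved by more than 1.5 times follow, as genes higher or lower in the first-named subset; the cause was not tested. By library size alone, 13 genes were lower in mature than in immature FL-cDC2s (7 with TMM factors), 8 were higher and 7 lower in immature FL-cDC2s than in non-DCs (5 and 15), 1 was lower in GM-DCs than in GM-Macs (5), 2 were lower in mature than in immature FL-cDC1s (1), 2 were lower in immature FL-cDC2s than in immature FL-cDC1s (5), 1 was higher in non-DCs than in GM-Macs (2), and 1 had a smaller maturation change in FL-cDC2s than in FL-cDC1s (0). The median of all genes then lay at −0.40, 0.64, 0.19, 0.00, 0.46, −0.25 and −0.44 in these comparisons. With limma, 12 were lower in mature FL-cDC2s, 9 higher and 6 lower in immature FL-cDC2s than in non-DCs, 2 lower in mature FL-cDC1s, 1 higher and 2 lower in immature FL-cDC2s than in immature FL-cDC1s, and 1 had a smaller maturation change. With DESeq2, 12 were lower in GM-DCs, 3 lower in mature FL-cDC1s, 10 lower in immature FL-cDC2s than in immature FL-cDC1s, 5 higher in non-DCs than in GM-Macs, and 3 had a smaller maturation change.

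With all 13 libraries in the fit, 8 were lower in immature FL-cDC2s than in non-DCs, 4 higher in mature FL-cDC2s than in non-DCs (7), and 10 lower in GM-DCs. With only the subsets compared in the fit, 2 were lower in immature FL-cDC2s than in immature FL-cDC1s and 4 higher in non-DCs than in GM-Macs. By TMM-scaled read counts in place of FPKM, 2 genes were highest in immature FL-cDC2s (5), 10 in non-DCs (3) and 1 in GM-DCs (3). The limma result on log2(FPKM + 1) understates changes of low genes. The unfiltered fit moved no count by more than 1.5 times.

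Leaving out each library in turn gave 11 to 16 genes higher and 6 to 10 lower in mature than in immature FL-cDC2s, 4 higher and 8 to 14 lower in immature FL-cDC2s than in non-DCs, 3 to 6 higher and 7 to 10 lower in mature FL-cDC2s than in non-DCs, 1 to 3 higher and 0 to 11 lower in GM-DCs, 4 to 5 higher and 2 lower in mature FL-cDC1s, 0 to 4 lower in immature FL-cDC2s than in immature FL-cDC1s, 0 to 3 higher and 2 to 8 lower in non-DCs than in GM-Macs, and 3 to 10 higher and 2 to 4 lower in mature FL-cDC2s than in GM-DCs. Where 1 library was left, it is assumed to vary like the other subsets.

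No source ties the replicate numbers of different subsets, and the deviations of same-numbered libraries from their subset means correlated between −0.16 and 0.31 across genes, so the numbers were not read as pairs. With the number as a replicate block, 8 genes were lower in GM-DCs than in GM-Macs, 9 lower in immature FL-cDC2s than in immature FL-cDC1s and 4 higher in non-DCs than in GM-Macs, and the other counts stayed within 1.5 times. No paired analysis was possible for the FL-cDC1 maturation comparison and the difference of the maturation changes because the single mature FL-cDC1 library carries no number. Depth limited mainly Me1, with 0 to 4 reads in the immature libraries.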
